A study of Mus musculus with 10 samples.

Results

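The p53 targets and senescence genes described here are 10 named mouse genes: Trp53, Cdkn1a, Mdm2, Gdf15, Trp53inp1, Ccng1, Bax, Bbc3, Cdkn2a and Cdkn2b. They were taken by name from the 46517 genes counted in 10 whole-kidney RNA-seq libraries. All 10 genes had enough reads to enter the tests, as did 17823 genes in all. Cdkn2a entered only through the libraries in which it was highest. Expression is given as CPM, the read counts of a gene scaled to a common library depth and corrected for library composition, and a gene is called higher or lower at an adjusted p under 0.05.

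The 10 libraries carry 4 genotype labels. Kidneys labelled G1-APOL1 (n = 2) and G2-APOL1 (n = 2) are described by the submitters as carrying a risk allele of APOL1, the human gene whose G1 and G2 variants are linked to kidney disease. They were set against kidneys labelled wild type (single mutant) (n = 3) and kidneys labelled Control (n = 3). The series' title places the APOL1 expression in podocytes, the filtering cells of the glomerulus. The labels do not give the strain, age, sex, the promoter driving the transgene, any agent used, what "single mutant" means, what alleles the Control kidneys carry, or whether each library is a separate mouse. P-values therefore measure the spread between these libraries. The human APOL1 transcript was not analysed here.

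The p53 protein, encoded by Trp53, is a transcription factor that is held at low levels by the ubiquitin ligase Mdm2 and is stabilised when DNA is damaged or a cell is stressed. It induces Cdkn1a (the cyclin-dependent kinase inhibitor p21), the cell-death genes Bax and Bbc3 (PUMA), the cyclin G gene Ccng1, Trp53inp1 and Mdm2 itself, so that activity is usually read from its targets rather than from its own mRNA. Cdkn2a and Cdkn2b encode further inhibitors of the cell cycle that accumulate in senescent cells. After tubular injury in the kidney, p21 and the secreted stress protein Gdf15 are well-known induced genes.

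For 9 of the 10 members RefSeq promoter windows were found (GRCm38.p6, 250 bases before to 50 after a transcription start). A window of each of Cdkn1a, Ccng1 and Bbc3 is printed because these 3 direct targets behaved differently in the kidneys. Cdkn1a varied widely, Ccng1 was lower and Bbc3 was higher with the risk alleles. Cdkn1a and Bbc3 also had windows at other starts, and the window with the closest match is printed. Capitals mark the 20-base stretch closest to a p53 response element, which consists of 2 adjoining copies of a 10-base motif, searched on both strands with no spacer.

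Cdkn1a, chr17:29090729-29091028, plus strand: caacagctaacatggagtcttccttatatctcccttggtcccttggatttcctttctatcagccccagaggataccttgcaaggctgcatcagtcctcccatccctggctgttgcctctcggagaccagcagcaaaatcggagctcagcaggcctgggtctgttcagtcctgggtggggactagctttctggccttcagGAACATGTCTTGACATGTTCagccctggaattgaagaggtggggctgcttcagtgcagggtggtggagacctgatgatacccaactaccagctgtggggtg
Ccng1, chr11:40755237-40755536, minus strand: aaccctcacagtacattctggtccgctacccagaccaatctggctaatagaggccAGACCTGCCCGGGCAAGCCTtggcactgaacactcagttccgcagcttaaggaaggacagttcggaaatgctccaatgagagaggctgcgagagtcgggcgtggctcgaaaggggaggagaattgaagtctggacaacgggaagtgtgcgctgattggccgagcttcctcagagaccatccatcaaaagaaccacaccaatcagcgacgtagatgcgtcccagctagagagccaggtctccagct
Bbc3, chr7:16309333-16309632, plus strand: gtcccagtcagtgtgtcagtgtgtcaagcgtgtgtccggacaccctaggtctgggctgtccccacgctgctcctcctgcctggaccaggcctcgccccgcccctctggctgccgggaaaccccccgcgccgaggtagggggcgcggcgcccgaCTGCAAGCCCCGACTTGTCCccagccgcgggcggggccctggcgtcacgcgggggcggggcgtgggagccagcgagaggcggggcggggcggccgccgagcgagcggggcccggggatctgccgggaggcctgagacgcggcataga

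The Cdkn1a and Ccng1 stretches each departed from the 20-base pattern at 1 position, and matches with at most 1 mismatch were found in 29 of the 32851 windows in the table (0.0883%). The Cdkn1a stretch lay 51 to 32 bases before the start of the printed window. The closest stretch in the other Cdkn1a window (chr17:29093519-29093818) had 5 mismatches. The Ccng1 stretch lay 195 to 176 bases before its start. Bbc3 had 3 mismatches in its printed window, 97 to 78 bases before that start, and 5 and 6 in its other windows. Bax and Trp53 also had 3, in the stretches below, and 6.29% of all windows held a match with at most 3 mismatches. These matches describe letters in a window and do not show that p53 bound there.

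Bax, chr7:45467090-45467109, minus strand: AGCATATCCCAGGCAAGCTT
Trp53, chr11:69580284-69580303, plus strand: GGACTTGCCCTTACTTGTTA

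Library totals ran between 27596391 and 34815153 counts, so that 3 counts corresponded to 0.0862 to 0.109 CPM on library totals alone. With the correction for composition, the 3 counts of Cdkn2a in Control replicate 3 stood at 0.119 CPM. Genes that mark kidney tissue were present in every group. Some sets of cell type markers moved with the risk alleles and others did not, and their part in each result below was not tested. The summed level of 4 injured-tubule markers (Havcr1, Lcn2, Krt20 and Vcam1) was 1276 to 1415 CPM in G1 kidneys and 417 to 537 CPM in G2 kidneys, against 13.7 to 23.9 CPM in wild type (single mutant) and 19.9 to 21.9 CPM in Control kidneys. All of them were called higher against Control, as were the 4 macrophage markers, which summed to 405 to 617 CPM with the risk alleles and to 101 to 122 CPM without them. All 6 proximal tubule markers were called lower and summed to 2698 to 3123 CPM in G1, 5259 to 5798 CPM in G2, 11666 to 14074 CPM in wild type (single mutant) and 11843 to 13155 CPM in Control kidneys. Both distal convoluted tubule markers were called lower, at sums of 78.1 to 87.6 CPM in G1 and 171 to 185 CPM in G2, against 460 to 768 CPM in wild type (single mutant) and 451 to 888 CPM in Control kidneys. Fibroblast markers (2 of 3 called higher) summed to 206 to 297 CPM in G1 and 458 to 685 CPM in G2, against 125 to 139 CPM in wild type (single mutant) and 118 to 158 CPM in Control kidneys. T cell markers (2 of 3 called higher) summed to 4.3 to 10.4 CPM with the risk alleles and 1.35 to 6.37 CPM without them, and neutrophil markers (2 of 2 tested called higher) to 0.997 to 2.32 CPM and 0.199 to 0.869 CPM. Against Control, 0 of 5 podocyte, 0 of 2 collecting duct and 0 of 2 B cell markers were called. Lower calls were made for 1 of 2 thick ascending limb and 1 of 3 endothelial markers. Against wild type (single mutant), 1 of 5 podocyte markers was called lower. For G1 by itself against Control, 1 fibroblast marker was higher and 1 lower. None of these markers was at 0 throughout a group. In whole tissue, a change in the number of cells of a type and a change in RNA per cell cannot be told apart.

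Across the 10 genes, 4 were called higher (Trp53, Bax, Bbc3 and Cdkn2a), 1 lower (Ccng1) and 5 not called when the mean of G1 and G2 was compared with Control in edgeR, whose quasi-likelihood p-values were adjusted over all tested genes. Of all tested genes, 37.3% were called in that comparison, 19.3% higher and 18% lower. Against wild type (single mutant) kidneys, 6 were called higher, with Cdkn1a and Gdf15 added to the 4 above, 1 lower (Ccng1 again) and 3 not called, against 39.9% of all genes called (20.6% higher, 19.3% lower). The median log2 fold change of the 10 genes was 0.52 relative to Control and 0.95 relative to wild type (single mutant), where that of all tested genes was 0.00 in both. Trp53, Bax, Bbc3 and Cdkn2a lay above Control in every risk-allele library, as did 20.7% of all tested genes. Cdkn2a had entered the tests only through its counts in those libraries. Against wild type (single mutant), these 4 and Gdf15 lay above it in every risk-allele library (21.6% of all genes) and Ccng1 below it (18.4% of all genes). With 10 genes, these shares describe the set and do not set it apart from other genes.

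**Figure D1:**
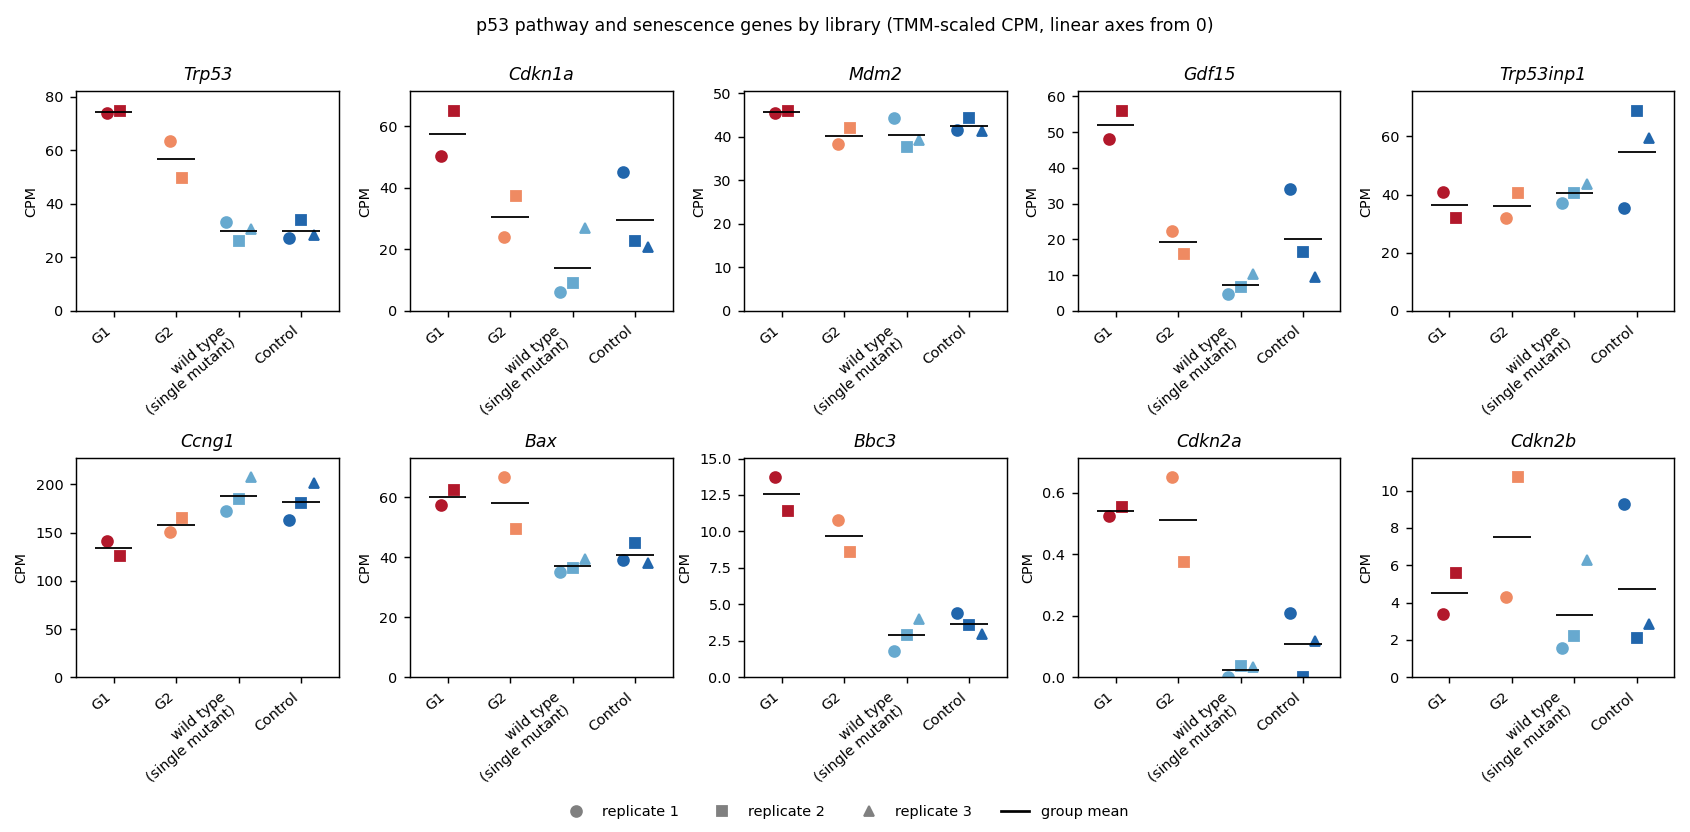
Scaled CPM (linear axes from 0) of each of the 10 genes in every library, with G1 and G2 left of wild type (single mutant) and Control; each point is 1 library, its shape gives the replicate number, and horizontal lines are group means. Trp53, Bax, Bbc3 and Cdkn2a in the 4 risk-allele libraries lie above all 6 other libraries, whereas Cdkn1a, Gdf15 and Cdkn2b spread widely among the libraries without risk alleles.

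Trp53 (ENSMUSG00000059552.12, GRCm38 chromosome 11, 69580359 to 69591873), the gene of p53 itself, was about doubled. Its level was 73.8 and 74.6 CPM in G1 kidneys and 63.6 and 49.8 CPM in G2 kidneys, against 33.4, 26.1 and 30.6 CPM in wild type (single mutant) and 27.2, 33.9 and 28.4 CPM in Control kidneys. All 4 risk-allele libraries lay above all 6 others. On the log2 scale the change was 1.12 ± 0.13 (SE) against Control (edgeR adjusted p = 0.00035) and 1.11 ± 0.13 against wild type (single mutant) (edgeR adjusted p = 0.000325). Each allele passed by itself against Control, with 1.31 ± 0.15 for G1 (edgeR adjusted p = 0.000275) and 0.93 ± 0.15 for G2 (edgeR adjusted p = 0.00358). The difference of G2 from G1, -0.39 ± 0.16, was not called (edgeR adjusted p = 0.184). A pseudogene, Trp53-ps, held 3 counts over all 10 libraries beside 14756 for Trp53.

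Mdm2 (chromosome 10, 117688875 to 117710758), both a target of p53 and the ligase that marks it for degradation, stayed within a narrow range in the same libraries. It had 38.3 to 45.9 CPM in the risk-allele libraries, against 37.6 to 44.3 CPM in wild type (single mutant) and 41.4 to 44.4 CPM in Control kidneys, and the groups overlapped. The log2 fold change was 0.01 ± 0.08 against Control (edgeR adjusted p = 0.921) and 0.08 ± 0.08 against wild type (single mutant) (edgeR adjusted p = 0.452). When the counts were scaled by library totals alone, Mdm2 was 0.29 higher against Control (edgeR adjusted p = 0.0494), a scaling under which the median of all tested genes was itself at 0.28.

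Both p53-induced cell-death genes rose. Bbc3 (ENSMUSG00000002083.11, chromosome 7, 16308393 to 16318205) encodes PUMA, a BH3-only protein that releases the brake of the anti-apoptotic BCL2 proteins, and it had the larger change. Its level was 13.7 and 11.4 CPM in G1 and 10.8 and 8.6 CPM in G2, against 1.81, 2.92 and 4.02 CPM in wild type (single mutant) and 4.44, 3.59 and 2.94 CPM in Control kidneys. The lowest risk-allele value was above the highest of the other 6. The log2 fold change was 1.59 ± 0.27 against Control (edgeR adjusted p = 0.00235) and 1.92 ± 0.28 against wild type (single mutant) (edgeR adjusted p = 0.000889). G1 and G2 each passed against Control, at 1.78 ± 0.31 and 1.40 ± 0.31, and the G2 call was lost without G2 replicate 1 (1.19, edgeR adjusted p = 0.0847).

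Bax (ENSMUSG00000003873.10, chromosome 7, 45461697 to 45466898), whose protein forms pores in the outer mitochondrial membrane, was higher by a smaller step. Its values were 57.3 and 62.4 CPM in G1 and 66.5 and 49.5 CPM in G2, against 35.0, 36.4 and 39.4 CPM in wild type (single mutant) and 39.2, 44.6 and 37.9 CPM in Control kidneys. The 4 risk-allele values again lay above the other 6. Bax differed on the log2 scale by 0.54 ± 0.12 against Control (edgeR adjusted p = 0.00692) and 0.67 ± 0.12 against wild type (single mutant) (edgeR adjusted p = 0.00208). Of its 1576 exon bases, 192 (12.2%) overlap Gm45808 on the same strand, a gene not counted in these files.

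Cdkn2a (ENSMUSG00000044303.6, chromosome 4, 89274471 to 89294653) was barely detected without the risk alleles. The gene has separate starts for the CDK inhibitor p16 and for ARF, which protects p53 from Mdm2, and counts per gene do not separate them. Its counts were 20 and 22 in G1 and 20 and 15 in G2, against 0, 1 and 1 in wild type (single mutant) and 6, 0 and 3 in Control kidneys. Every risk-allele library had more counts than any other, at levels of 0.374 to 0.649 CPM. The gene passed the low-count filter (minimum count 10) only through the risk-allele libraries. Its higher call and lack of overlap are therefore not independent of that filter. Summed over libraries and scaled by depth, the ratio was 5.68 against Control (77 and 9 counts, 95% counting interval 2.84 to 12.9) and 27.2 against wild type (single mutant) (77 and 2 counts, 7.27 to 228). These intervals cover counting error only. The log2 fold change against Control was 2.21 ± 0.69 (edgeR adjusted p = 0.0335), and that call was lost on leaving out either G1 library (0.0744 and 0.0853), the first of G2 (0.086) or the third of Control (0.082).

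Its neighbour Cdkn2b (chromosome 4, 89306299 to 89311039), which encodes the related CDK inhibitor p15, had no such pattern. Cdkn2b had 3.41 and 5.57 CPM in G1 and 4.32 and 10.7 CPM in G2, against 1.57, 2.19 and 6.27 CPM in wild type (single mutant) and 9.27, 2.1 and 2.86 CPM in Control kidneys. The highest value was in G2 and the next in Control, and the lowest values were in wild type (single mutant) and Control. Its log2 fold change was 0.29 ± 0.64 against Control (edgeR adjusted p = 0.748) and 0.80 ± 0.65 against wild type (single mutant) (edgeR adjusted p = 0.357).

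Among the genes with lower estimates, Ccng1 (ENSMUSG00000020326.7, chromosome 11, 40748552 to 40755311), the cyclin G gene and a direct p53 target, was the only 1 of the 10 called lower against Control. It had 141 and 126 CPM in G1 and 151 and 165 CPM in G2, against 172, 185 and 207 CPM in wild type (single mutant) and 163, 181 and 201 CPM in Control kidneys. All 4 risk-allele values lay below those of wild type (single mutant), while the upper G2 value lay just above the lowest Control. The log2 fold change was -0.32 ± 0.10 against Control (edgeR adjusted p = 0.0379) and -0.37 ± 0.10 against wild type (single mutant) (edgeR adjusted p = 0.0197). With library totals alone it was -0.05 (adjusted p = 0.766) and -0.09 (adjusted p = 0.544). The call against Control was also lost in 6 of the 7 fits that left out 1 library, all but that without Control replicate 1, with adjusted p up to 0.138 without Control replicate 3, and in the fit without the low-count filter (0.0717). Against wild type (single mutant) it was lost without G1 replicate 2 (0.0645) or without wild type (single mutant) replicate 3 (0.064).

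Trp53inp1 (chromosome 4, 11156431 to 11174379), a nuclear stress protein that promotes p53 activity, had 31.8 to 40.8 CPM in the risk-allele libraries, against 37.2 to 43.5 CPM in wild type (single mutant) and 35.4, 68.7 and 59.4 CPM in Control kidneys. The groups overlapped through Control replicate 1. Its log2 fold change of -0.59 ± 0.21 against Control was just outside the threshold (edgeR adjusted p = 0.0536) and was called lower by DESeq2 (-0.60, adjusted p = 0.0247), with DESeq2's size factors in edgeR (-0.60, 0.0471), without the low-count filter (-0.58, 0.0349) and without Control replicate 1 (-0.82, 0.00534). Against wild type (single mutant) it was -0.16 ± 0.21 (edgeR adjusted p = 0.58).

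**Figure D2:**
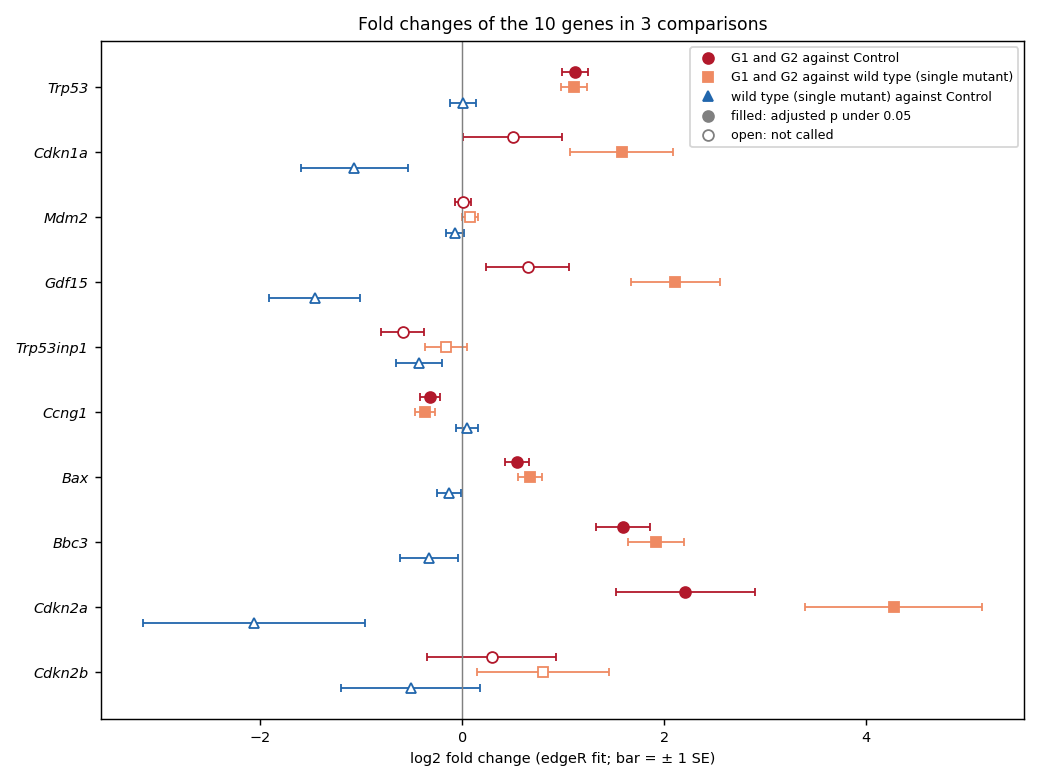
Log2 fold changes (x axis, log2 scale) of the 10 genes for the 2 risk alleles averaged, against wild type (single mutant) and against Control, and for wild type (single mutant) against Control; points are edgeR estimates and bars are ± 1 SE. Trp53, Bbc3 and Bax have similar estimates against both groups, at 1.11 and 1.12 for Trp53, whereas Cdkn1a and Gdf15 differ by more than 1 unit, and the fitted Cdkn2a values that involve wild type (single mutant) rest on 2 counts.

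The p21 gene and Gdf15 differed from Trp53 in how widely their levels spread among the kidneys without risk alleles. Cdkn1a (ENSMUSG00000023067.12, chromosome 17, 29090976 to 29100727) had 50.3 and 64.9 CPM in G1 and 24.0 and 37.3 CPM in G2, against 6.06, 9.06 and 27.1 CPM in wild type (single mutant) and 45.1, 22.8 and 20.9 CPM in Control kidneys. Control replicate 1 stood among the risk-allele libraries and wild type (single mutant) replicate 3 above G2 replicate 1. Against Control the log2 fold change was 0.50 ± 0.49 (edgeR adjusted p = 0.447), with 0.96 ± 0.57 for G1 (adjusted p = 0.216) and 0.05 ± 0.58 for G2 (adjusted p = 0.963). Against wild type (single mutant) it was 1.58 ± 0.51 (edgeR adjusted p = 0.0357), a call lost in 5 of the 7 fits without 1 library: those without G1 replicate 1 (0.0584) or 2 (0.0854), G2 replicate 2 (0.0807), or wild type (single mutant) replicate 1 (0.0952) or 2 (0.119). The difference between wild type (single mutant) and Control, -1.07 ± 0.53, had an unadjusted edgeR p of 0.0732.

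Gdf15 (ENSMUSG00000038508.7, chromosome 8, 70629393 to 70632456), a secreted member of the TGF-beta superfamily, had a like pattern. Its level was 48.0 and 55.9 CPM in G1 and 22.5 and 15.9 CPM in G2, against 4.86, 6.65 and 10.4 CPM in wild type (single mutant) and 34.2, 16.6 and 9.39 CPM in Control kidneys. Both G1 values were the highest of the 10, and the G2 values lay within the Control range. The log2 fold change was 2.11 ± 0.44 against wild type (single mutant) (edgeR adjusted p = 0.00491) and 0.65 ± 0.41 against Control (edgeR adjusted p = 0.238). Leaving out Control replicate 1 gave 1.28 against Control (edgeR adjusted p = 0.0276). G1 by itself passed against Control at 1.37 ± 0.47 (edgeR adjusted p = 0.0475), and G2 had -0.06 ± 0.48 (edgeR adjusted p = 0.94). The G1 call was lost without either G1 library (0.116 and 0.177) and without Control replicate 2 (0.111) or 3 (0.0902).

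The alleles were next taken one by one. Set against Control, G1 had 5 called higher (Gdf15 beside the 4 above), 1 lower (Ccng1) and 4 not called, with 37.3% of all genes called (19.5% higher, 17.9% lower). G2 had 3 called higher (Trp53, Bax and Bbc3) and 7 not called, with 21.6% of all genes called (12.7% higher). Bax in G2 was not called without G2 replicate 1 (0.24, edgeR adjusted p = 0.257), Control replicate 1 (0.0757) or Control replicate 3 (0.0785), nor in G1 without G1 replicate 2 (0.0841). The G1 call of Cdkn2a, 2.25 (edgeR adjusted p = 0.0451), was lost without either G1 library (0.136 and 0.158), without Control replicate 2 (0.0535) or 3 (0.0934) and by DESeq2 (0.0701). The 2 comparisons share the Control libraries. The G2 against G1 comparison called 0 of the 10 by edgeR, with 6.72% of all genes called, and 2 of the 10 had an unadjusted p under 0.05. Both G2 libraries lay below both G1 libraries in 5 of the 10 and above them in 1, as in 26.7% and 29.2% of all tested genes. DESeq2 called 1, Gdf15, at -1.48 (adjusted p = 0.0299), where edgeR gave -1.44 ± 0.53 (adjusted p = 0.14), and edgeR fitted to those groups only called it too, at -1.45 (adjusted p = 0.0368). In the wild type (single mutant) against Control comparison, edgeR called 0 of the 10 and 0 of all 17823 genes, that is 0% of them. There, 724 genes had an unadjusted p under 0.05, among them 1 of the 10 (Gdf15, at -1.46 ± 0.45), and DESeq2 called 17 genes and none of the 10.

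Titles of 3 of the 6 libraries without risk alleles begin with the same letters (wild type (single mutant) replicate 3 and Control replicates 1 and 2), and the other 3 do not. What the letters stand for is not given, and this split was chosen after seeing the data. Cdkn1a had 27.1, 45.1 and 22.8 CPM in the first 3 libraries and 6.06, 9.06 and 20.9 CPM in the other 3. The risk-allele libraries differed from the first 3 by 0.41 ± 0.40 in Cdkn1a (edgeR adjusted p = 0.444) and from the other 3 by 1.81 ± 0.42 (edgeR adjusted p = 0.0066). For Gdf15 the same values were 0.63 ± 0.37 (edgeR adjusted p = 0.205) and 2.18 ± 0.40 (edgeR adjusted p = 0.00185). Of the 10 genes, 5 were called against the first set (41.4% of all genes) and 8 against the second (47.1% of all genes), and Trp53, Bax, Bbc3, Cdkn2a and Ccng1 were called against both. Set against each other, the 2 sets of libraries gave 0 of the 10 called, with 2.88% of all genes called. Cdkn1a then had 1.40 ± 0.44 (edgeR adjusted p = 0.122) and Gdf15 had 1.55 ± 0.41 (edgeR adjusted p = 0.083).

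**Figure D3:**
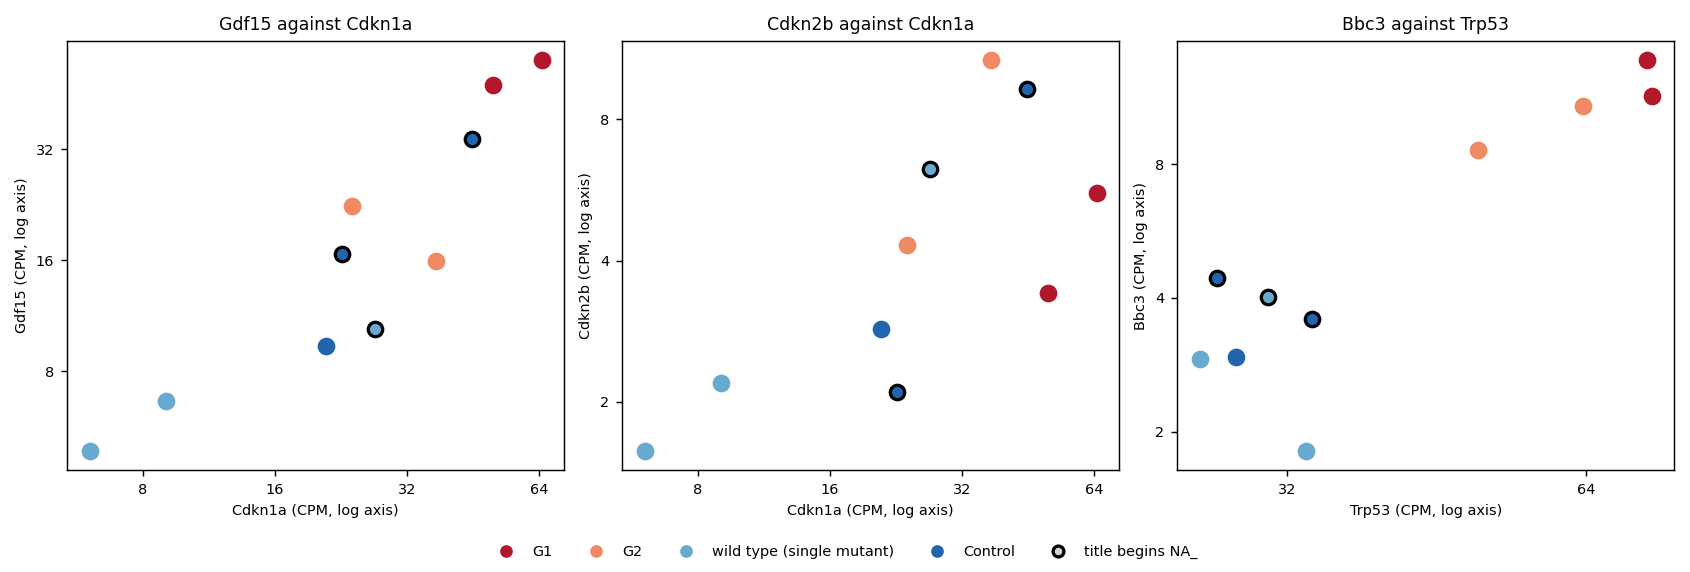
Scaled CPM of pairs of the 10 genes plotted against each other on log axes, 1 point per library, coloured by genotype label and marked where the title begins with the shared letters. Gdf15 runs with Cdkn1a over libraries of all labels, while Trp53 separates the 4 risk-allele libraries, at 49.8 to 74.6 CPM, from the other 6.

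Across the 10 libraries Gdf15 had the highest Pearson's r with Cdkn1a of the other members on log2 CPM, at 0.91, with Spearman's rho = 0.903. Bbc3 had the same rho, 0.903, with r = 0.785, and Trp53 had r = 0.571 and rho = 0.576. Among the 14318 genes averaging at least 1 CPM, the closest were the ribosomal protein pseudogene Rps19-ps6 (r = 0.943), Mid1ip1 (r = 0.927), the lysosomal alpha-galactosidase gene Gla (r = 0.926), Gm14586 (r = 0.926) and the beta-tubulin gene Tubb2a (r = 0.925). The points share libraries and differences between genotypes, so these values are a description.

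On a per-length scale (CPM per kb of exon), Ccng1 had the highest level of the 10 both with the risk alleles, at 41.5 (35.9 to 47.0), and without them, at 52.6 (46.3 to 59.0), and Bax came second, at 37.4 (31.4 to 42.2) with and 24.6 (22.2 to 28.3) without. Without the risk alleles the next 5, Mdm2, Trp53, Gdf15, Trp53inp1 and Cdkn1a, had means of 8.15 to 6.15 CPM per kb with overlapping ranges. Cdkn2b (2.91, 1.13 to 6.67) overlapped Bbc3 (1.55, 0.854 to 2.09), and Cdkn2a was last at 0.0566 (0.0 to 0.178). With the risk alleles, the level per kb of Trp53 was 16.2 (12.3 to 18.4) and that of Mdm2 was 8.44 (7.53 to 9.03), ranges that did not overlap.

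The genes around p53 were followed in lists of named genes, each read beside the 19.3% of all tested genes called higher and the 18% called lower against Control. Of 18 tested regulators of p53, 2 were called higher (11.1%), 1 lower (5.56%) and 15 not called, both shares below those of all genes, with a median log2 fold change of 0.05 over the list. Chek1, a kinase of the DNA damage checkpoint, averaged 4.0 CPM with the risk alleles and 0.678 CPM in Control kidneys, a log2 fold change of 2.43 ± 0.34 (edgeR adjusted p = 0.000793). Hipk2, a kinase that phosphorylates p53, was lower, with 12.8 CPM against 34.9 CPM and -1.45 ± 0.32 (edgeR adjusted p = 0.00822). Ppp1r13l, the p53 inhibitor iASPP, was called higher at 0.62 ± 0.18 (edgeR adjusted p = 0.0246), a call lost without either G1 library, G2 replicate 2 or Control replicate 2 or 3, with adjusted p up to 0.0818. The checkpoint kinase Chek2 had 0.57 ± 0.23 and was not called (edgeR adjusted p = 0.0842). With library totals alone 7 were higher and 1 lower, and without G2 replicate 2 the counts were 1 and 3.

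Among 45 other tested p53 targets, 13 were higher (28.9%), 7 lower (15.6%) and 25 not called, with a median of 0.28, so that the lower share was near that of all genes. Pmaip1, which encodes the BH3-only protein NOXA, had 24.6 to 68.9 CPM with the risk alleles and 10.5 to 15.6 CPM in Control kidneys (1.76 ± 0.24, edgeR adjusted p = 0.000771). The small GTPase gene Rap2b was higher at 2.28 ± 0.29 (edgeR adjusted p = 0.00051). The most significant member was Gtse1, a gene of the G2 and S phases that also restrains p53, at 2.68 ± 0.25 (edgeR adjusted p = 0.000128). Dcxr, a carbonyl reductase, was lower at -1.07 ± 0.16 (edgeR adjusted p = 0.00102). With library totals alone 21 were higher and 4 lower. The same list gave, relative to wild type (single mutant) kidneys, 19 higher (42.2%), 7 lower (15.6%) and 19 not called. In that comparison 20.6% of all tested genes were called higher and 19.3% lower.

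Of 18 tested genes of the BCL2 family and mitochondrial death machinery, 5 were higher (27.8%, Pmaip1 among them), 3 lower (16.7%) and 10 not called against Control, with a median of 0.18. With 18 genes these shares are close to those of all tested genes. Mcl1, which protects cells from death, was higher at 256 CPM against 137 CPM (0.87 ± 0.10, edgeR adjusted p = 0.000313), and the pore-forming Bak1 was higher at 49.3 CPM against 16.0 CPM (1.57 ± 0.20, edgeR adjusted p = 0.000575). The protective Bcl2l2 was lower at -0.60 ± 0.11 (edgeR adjusted p = 0.00284). With library totals alone this list gave 9 higher and 2 lower.

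Genes of the CDK inhibitor and RB axis, which couples p21, p15 and p16 to cell cycle entry, gave 9 higher (50%), 2 lower (11.1%) and 7 not called of 18 tested, with a median of 0.48. The 4 with the lowest p encode drivers of the cycle. E2f1 had 6.58 to 14.2 CPM against 2.39 to 2.61 CPM (1.89 ± 0.19, edgeR adjusted p = 0.000164), and Cdk4, Cdk2 and Cdk6 were higher at 0.90 ± 0.10, 1.12 ± 0.15 and 1.33 ± 0.18. Other genes called included an inhibitor, RB family repressors and cyclins, all named after their values were seen. The CDK inhibitor Cdkn2d at 0.47 (edgeR adjusted p = 0.0407) and the RB family member Rbl1 at 0.58 (edgeR adjusted p = 0.0189) were higher. Its relative Rbl2 was lower at -0.54 (edgeR adjusted p = 0.0207). The cyclin D1 gene Ccnd1 was also lower, with 120 CPM against 228 CPM in Control kidneys (-0.93 ± 0.17, edgeR adjusted p = 0.00315). Other cyclin genes of the list were called higher. These were Ccne1 at 2.64 (edgeR adjusted p = 0.00196), Ccne2 at 0.95 (edgeR adjusted p = 0.00699) and Ccnd2 at 0.50 (edgeR adjusted p = 0.0203). Ccnd3 was not called, at -0.17 (edgeR adjusted p = 0.157). Lower calls numbered 1 without G1 replicate 2, Control replicate 2 or Control replicate 3, and with library totals alone.

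All 20 cell cycle genes known to be repressed through p53, p21 and the DREAM complex were higher with the risk alleles against Control, with a median log2 fold change of 3.29. Topoisomerase Top2a had 16.3 to 50.1 CPM against 2.43 to 2.93 CPM (3.38 ± 0.17, edgeR adjusted p = 2.88e-05), and the proliferation marker Mki67 had 20.4 to 77.3 CPM against 3.1 to 3.47 CPM (3.71 ± 0.22, edgeR adjusted p = 4.03e-05). The mitotic kinase Cdk1 and Cdc20, an activator of the anaphase-promoting complex, were higher at 3.72 ± 0.26 and 2.78 ± 0.21. All 20 were also called against wild type (single mutant), and in G1 and in G2 by themselves against Control.

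Senescence-associated secretory and marker genes gave 13 higher (46.4%), 5 lower (17.9%) and 10 not called of 28 tested, with a median of 0.90 against Control. The lower calls numbered 2 without G1 replicate 2, G2 replicate 1, Control replicate 1 or Control replicate 3 and with library totals alone, and 3 without any 1 of the other 3 libraries. The chemokine Ccl2 was 22.0 to 55.4 CPM with the risk alleles and 0.676 to 1.67 CPM in Control kidneys (5.17 ± 0.37, edgeR adjusted p = 6.25e-05), and the adhesion molecule Icam1 was higher at 2.37 ± 0.20 (edgeR adjusted p = 9.6e-05). Both are also expressed by inflamed tubules and leukocytes. Lamin B1 (Lmnb1) and the Polycomb methyltransferase Ezh2 are typically lost in senescent cells. Lmnb1 was higher at 1.87 ± 0.14 (edgeR adjusted p = 7.05e-05) and Ezh2 at 1.49 ± 0.14 (edgeR adjusted p = 0.000141). Whether senescent cells were present was not tested.

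**Figure D4:**
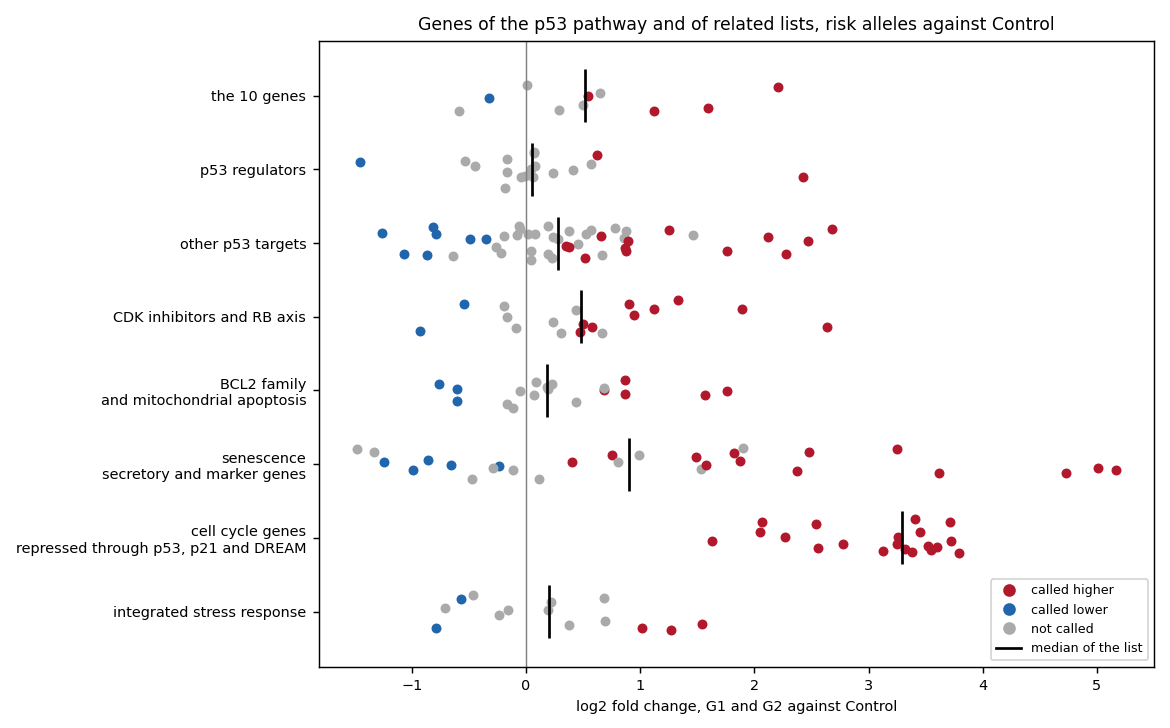
Log2 fold changes with the risk alleles (G1 and G2 averaged) against Control kidneys (x axis, log2 scale) for the 10 genes and the tested genes of each list (rows); each point is 1 gene, red where called higher, blue where called lower and grey where not called, and a black line marks each median. The 20 cell cycle genes lie above 0 throughout, at a median of 3.29, while the regulators of p53 centre on 0.05.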

How the data were processed

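Poly(A) RNA of 10 mouse kidneys was sequenced as single-end reads, per the labels' protocols. The series' texts name different Qiagen RNA kits for the same samples. The authors deposited 1 table of raw read counts per gene for each library. The submitters' processing notes name CASAVA 1.8.2, FastQC, Trim Galore, STAR 2.4.1d, HTSeq 0.6.1 and GRCm38. Settings, strandedness and gene annotation behind these counts: not given in the sources used here. Reads of overlapping antisense genes could therefore not be separated.

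Gene IDs were matched to GENCODE M21 (46005 of 46517 matched). From the deposited counts, edgeR 4.0.16 in R 4.3.3 kept 17823 genes (filterByExpr, minimum count 10), scaled libraries by TMM and fitted 1 quasi-likelihood model to all 10 libraries with a term per genotype label. The common biological coefficient of variation was 0.249. Log2 fold changes are given with their standard error, and p-values were adjusted over all tested genes by the method of Benjamini and Hochberg. CPM was computed on TMM-scaled totals.

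Totals of 27596391 to 34815153 counts per library limited the precision of genes near 1 CPM, such as Cdkn2a. Replicates were numbered in accession order, so numbers do not pair libraries. Alternatives were DESeq2 1.42.0, DESeq2's size factors in edgeR, library totals alone, no low-count filter, a fit of the compared groups only, and leaving out each library. The steps were tested on simulated data. For the risk alleles against Control, 36 of 97 simulated log2 changes of 1 were recovered (37.1%) and 80 of 97 changes of 2 (82.5%). Of 17149 unchanged genes, 7 were called. A gene not called is thus not shown to be unchanged. Far fewer genes were changed in the simulation than the 37.3% called in the kidneys, and adjusted p-values depend on that share. The simulated recovery rates need therefore not hold for these data.

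The 10 genes and the lists were chosen with earlier results of these data known. In each list, the 4 genes with the lowest p against Control were named, and any other is marked where it stands. Promoter windows came from RefSeq (GRCm38.p6, 250 bases before to 50 after each start).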

Additional observations from a re-analysis of the deposited data

Results flagged for a closer look

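Of the genes named from the lists 7 differed between G2 and G1 kidneys by the test of that difference itself (edgeR, adjusted over all genes), these 7 being lower in G2. The log2 differences were -1.54 for Cdk1 (adjusted p = 0.0212), -1.44 for Cdc20 (0.0155), -1.36 for Gtse1 (0.0286), -1.28 for Top2a (0.0134) and -1.27 for Mki67 (0.0255). Lmnb1 differed by -0.81 (adjusted p = 0.0301) and Mcl1 by -0.66 (adjusted p = 0.0225). Of the 20 cell cycle genes repressed through p53 and DREAM, 13 (65%) were called lower in G2 than in G1 and 7 were not called. Of all tested genes, 6.72% were called in this comparison, in either direction. With 2 libraries per allele, leaving out 1 leaves 1 library in a group. Calls in this list were then few or absent, except without G2 replicate 1. The median log2 difference of the 20 was -1.32 with all libraries. It was -1.51 without G1 replicate 1, -1.12 without G1 replicate 2, -1.71 without G2 replicate 1 and -1.20 without G2 replicate 2. Each of the 7 genes lost its call in at least 1 of these fits, with adjusted p up to 0.164 for Lmnb1. The summed injured-tubule markers were also lower in G2, at 417 to 537 CPM against 1276 to 1415 CPM in G1, and their part in these differences was not tested. In the senescence list 2 of 28 tested genes were called higher (7.14%) and 2 lower (7.14%) in G2. Among the 45 other tested p53 targets 2 were higher (4.44%) and 2 lower (4.44%). These shares stand beside the 6.72% of all genes called in either direction. By edgeR, none of the 10 genes described above was called in this comparison.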

How the results depend on the processing

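Trp53, Bbc3 and Bax kept their direction and their calls relative to Control and to wild type (single mutant) kidneys under every alternative run for the mean of both risk alleles. Counts of the 10 genes called stayed within 1.5 times their main value, with the following exceptions. Against the 3 differently titled libraries without risk alleles, 8 were called where 5 were called against Control. Between G2 and G1, DESeq2 called 1 and the fit of those groups only called 1 (Gdf15), where 0 were called. When 1 library was left out, the count ranged between 3 and 7 for the risk alleles against Control, 2 and 7 for G1 against Control (6 with all libraries) and 1 and 3 for G2 against Control (3 with all libraries). Without G1 replicate 1, G1 replicate 2 or Control replicate 3 the G1 count was 3, 2 and 3, and the G2 count was 1 without G2 replicate 1; the cause was not tested. None of these alternatives reversed a called value.

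With library totals alone, all tested genes gave 6037 higher and 1600 lower against Control, where TMM gave 3441 and 3212, and their median log2 fold change was 0.28. Under that scaling 5 of the 10 genes were higher and 0 lower, with 7 higher and 1 lower of the 18 p53 regulators and 21 higher and 4 lower of the 45 other targets. For G2 against G1, edgeR called 1198 genes and DESeq2 called 1201 higher and 1285 lower. No paired analysis was possible because the labels give no replicate numbers shared by the groups. Groups of 2 and 3 libraries limit every comparison. At this depth a Cdkn2a level under 3 counts (0.0862 to 0.109 CPM on library totals alone) could not be told from 0.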

Other observations

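Of 14 genes of the integrated stress response, the pathway that raises Atf4 and its targets when protein synthesis is slowed, 3 were higher (21.4%), 2 lower (14.3%) and 9 not called with the risk alleles against Control (edgeR, adjusted over all genes), near the 19.3% higher and 18% lower of all tested genes, with a median log2 fold change of 0.21. The serine synthesis enzyme Phgdh averaged 38.0 CPM with the risk alleles and 14.6 CPM in Control kidneys (1.27 ± 0.24, edgeR adjusted p = 0.00334), and asparagine synthetase Asns averaged 14.5 and 4.85 CPM (1.54 ± 0.39, edgeR adjusted p = 0.0144). Sesn2, which is also a p53 target, was lower at -0.79 ± 0.18 (edgeR adjusted p = 0.00952), a call lost with library totals alone (adjusted p = 0.0588). The lipoprotein receptor gene Vldlr was lower at -0.57 ± 0.16 (edgeR adjusted p = 0.0212), a call lost with library totals alone and without G1 replicate 2 or Control replicate 3. Lower calls numbered 1 without either of those libraries and 0 with library totals alone. Against wild type (single mutant) kidneys 6 were higher (42.9%), 2 lower (14.3%) and 6 not called, with a median of 0.68. The list was itself low in those kidneys, with a median of -0.65 for wild type (single mutant) against Control and 0 of 14 called. For the risk alleles against wild type (single mutant), the shares of all genes follow. In that comparison 20.6% of all tested genes were called higher and 19.3% lower.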
